A study of Homo sapiens with 16 samples.

Results

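The genes described here are 34 genes of protein folding in the endoplasmic reticulum (ER) and of the unfolded protein response (UPR), taken by gene symbol from the 20531 entries of a count table. They comprise 9 ER chaperones and co-chaperones, 2 lectin chaperones, 6 disulfide enzymes, 4 UPR sensors and effectors, 8 genes of ER-associated degradation, 3 subunits of the SEC61 translocon, and WFS1 and SEC24D. All 34 were listed and all 34 had enough counts to be tested in every comparison. Their levels were measured by RNA sequencing in LNCaP, an androgen-responsive human prostate carcinoma cell line of luminal secretory type, in 16 libraries.

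The 4 groups had 4 libraries each and combined an siRNA (NS or SLIRP) with a treatment (Veh or 1nM DHT), by which they are named, as in NS-Veh. NS cells received a nonsense control siRNA and SLIRP cells a pool of siRNA against SLIRP, an RNA binding protein of mitochondria and of nuclear receptor complexes, both at 40 nM for 24 h. The cells were then kept for another 24 h in medium without serum that held ethanol (vehicle) or 1 nM dihydrotestosterone (DHT), the ligand of the androgen receptor. All groups thus shared the cell line, a transfected siRNA and the absence of serum. Because 1 control siRNA was compared with 1 pool, loss of SLIRP and other effects of these siRNA sequences cannot be told apart. The comparisons ask how loss of SLIRP and a suboptimal dose of androgen alter these RNAs, each alone and together.

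The ER is the compartment in which secreted and membrane proteins enter through the SEC61 channel, fold with the help of chaperones, receive disulfide bonds, and are either passed on in COPII vesicles or returned to the cytosol and degraded. When unfolded proteins accumulate, the sensors ATF6, IRE1 (gene ERN1) and PERK (gene EIF2AK3) start the UPR, in which cleaved ATF6 and the spliced form of XBP1 activate chaperone and degradation genes and PERK slows translation and raises ATF4. Prostate luminal cells secrete large amounts of protein, and androgen is known to engage UPR branches in LNCaP cells.

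Library totals lay between 436353 and 1689708 counts, so genes of low level were measured with few counts. SLIRP, listed under its older symbol C14orf156, ranged from 45.1 to 63.4 CPM (counts relative to the scaled size of the library) in the 8 NS libraries and from 1.41 to 8.04 CPM in the 8 SLIRP siRNA libraries, so all 16 libraries matched the siRNA in their labels, which does not check the treatment. With DHT, 5 of the 12 luminal prostate markers rose in NS cells and 5 in SLIRP siRNA cells, beside 0.849% and 0.636% of all genes tested. All 12 luminal prostate markers examined were detected, while the basal markers KRT5 and TP63, the endothelial markers PECAM1, CDH5 and KDR, and the leukocyte markers PTPRC and CD3E had 0 counts in every library, and the stromal marker DCN likewise. The summed level of the 12 luminal markers was 5102 to 5905 CPM in the NS libraries and 3967 to 4678 CPM in the SLIRP siRNA libraries, and its part in the results below was not tested. Singly the 12 went both ways under SLIRP siRNA. Over 16 libraries 5 of the 12 were lower, 1 higher (by 0.79 on the log2 scale) and 6 not called. Of all genes tested, 17.4% were lower and 17.8% higher there. In vehicle 5 of the 12 were lower and 2 higher, beside 9.95% and 11.8% of all genes tested. In DHT 6 of the 12 were lower and 4 higher, beside 11.6% and 12.8%. In bulk RNA, fewer cells of a kind and less RNA per cell cannot be told apart.

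Many ER folding genes carry an ER stress response element (ERSE) in their promoter, the letters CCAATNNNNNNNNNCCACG (N is any base), or the shorter ERSE-II, the letters ATTGGNCCACG. The promoter stretches of 6 members are shown because each holds one of these elements (the ERSE-II in HERPUD1, the ERSE in the other 5) while their responses to SLIRP siRNA, given below, ranged from a fall to no call. They come from RefSeq on GRCh38.p14 and read 5′ to 3′ along the gene's strand, with the element (on either strand, N bases included) in capitals.
CALR (chr19:12938359-12938432, plus strand): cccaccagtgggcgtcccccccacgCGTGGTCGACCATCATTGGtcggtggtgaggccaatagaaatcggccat
HERPUD1 (chr16:56931995-56932065, plus strand): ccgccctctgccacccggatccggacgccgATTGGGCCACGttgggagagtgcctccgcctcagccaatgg
PDIA6 (chr2:10812823-10812901, minus strand): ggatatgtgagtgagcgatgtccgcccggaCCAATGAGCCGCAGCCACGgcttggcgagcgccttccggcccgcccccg
HSPA5 (chr9:125241361-125241439, minus strand): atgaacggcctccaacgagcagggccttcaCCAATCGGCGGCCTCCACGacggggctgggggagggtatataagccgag
CANX (chr5:179698748-179698826, plus strand): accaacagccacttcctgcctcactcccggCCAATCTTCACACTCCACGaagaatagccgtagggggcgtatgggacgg
XBP1 (chr22:28800573-28800651, minus strand): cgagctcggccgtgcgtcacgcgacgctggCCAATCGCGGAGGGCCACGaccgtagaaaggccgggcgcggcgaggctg

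A promoter window of 250 bases before to 50 after the start site was at hand for 31 of the 34 members, the others being PDIA3, DERL1 and SEC24D. The ERSE was found, on either strand, in 8 of them, namely HSPA5, HSP90B1, CALR, CANX, PDIA6, ERO1LB, XBP1 and CRELD2. Some members had more than 1 window, and the ERSE was in 3 of 4 for CANX, 1 of 2 for PDIA6 and 1 of 2 for XBP1. The ERSE-II was found in HERPUD1, SDF2L1 and HYOU1, and the letters TGACGTGG of the UPR element core, which overlap an ERSE-II there, in HYOU1 alone among the members. Of all 27305 genes with a window, 0.0916% had an ERSE, 0.0696% an ERSE-II and 0.927% the UPR element core in at least 1 window. Of the 35116 windows themselves, 0.0769% held an ERSE, 0.0541% an ERSE-II and 0.729% the UPR element core. No window held both ERSE and ERSE-II. A match is a run of letters and not a measured binding site.

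SLIRP siRNA was accompanied by lower RNA of 15 of the 34 genes over all 16 libraries (8 against 8, vehicle and DHT together). Among the members whose siRNA groups did not overlap, the ER lectin chaperone CALR, the degradation factor HERPUD1, the sensor ATF6 and the chaperone partner DNAJC3 had the largest falls, to between 0.456 and 0.636 times the NS level. ERO1L and EDEM1 rose, to 1.41 and 1.26 times. The remaining 17, CANX and XBP1 among them, did not pass the test (edgeR quasi-likelihood test, FDR 0.01).

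The 15 members that fell were 44.1% of the 34, beside 17.4% of the 10167 genes tested, and the 2 that rose were 5.88%, beside 17.8% of all genes tested. The 34 genes were chosen with earlier results of these data known. The genes beside them were not matched for level, so these shares are a description with no test. In 8 members (CALR, HSP90B1, P4HB, PDIA3, PDIA6, DNAJC3, ATF6 and HERPUD1) every SLIRP siRNA library lay below every NS library, which is 23.5% of the members beside 7.28% of all genes tested. In 0 members did every SLIRP siRNA library lie above every NS library, beside 7.89% of all genes tested. The median log2 fold change was -0.31 over the 34 members and -0.01 over all genes tested. The members added together took 9688 to 10596 CPM in the NS libraries and 7577 to 8323 CPM in the SLIRP siRNA libraries, so the summed levels of the siRNA groups did not overlap.

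**Figure D1:**
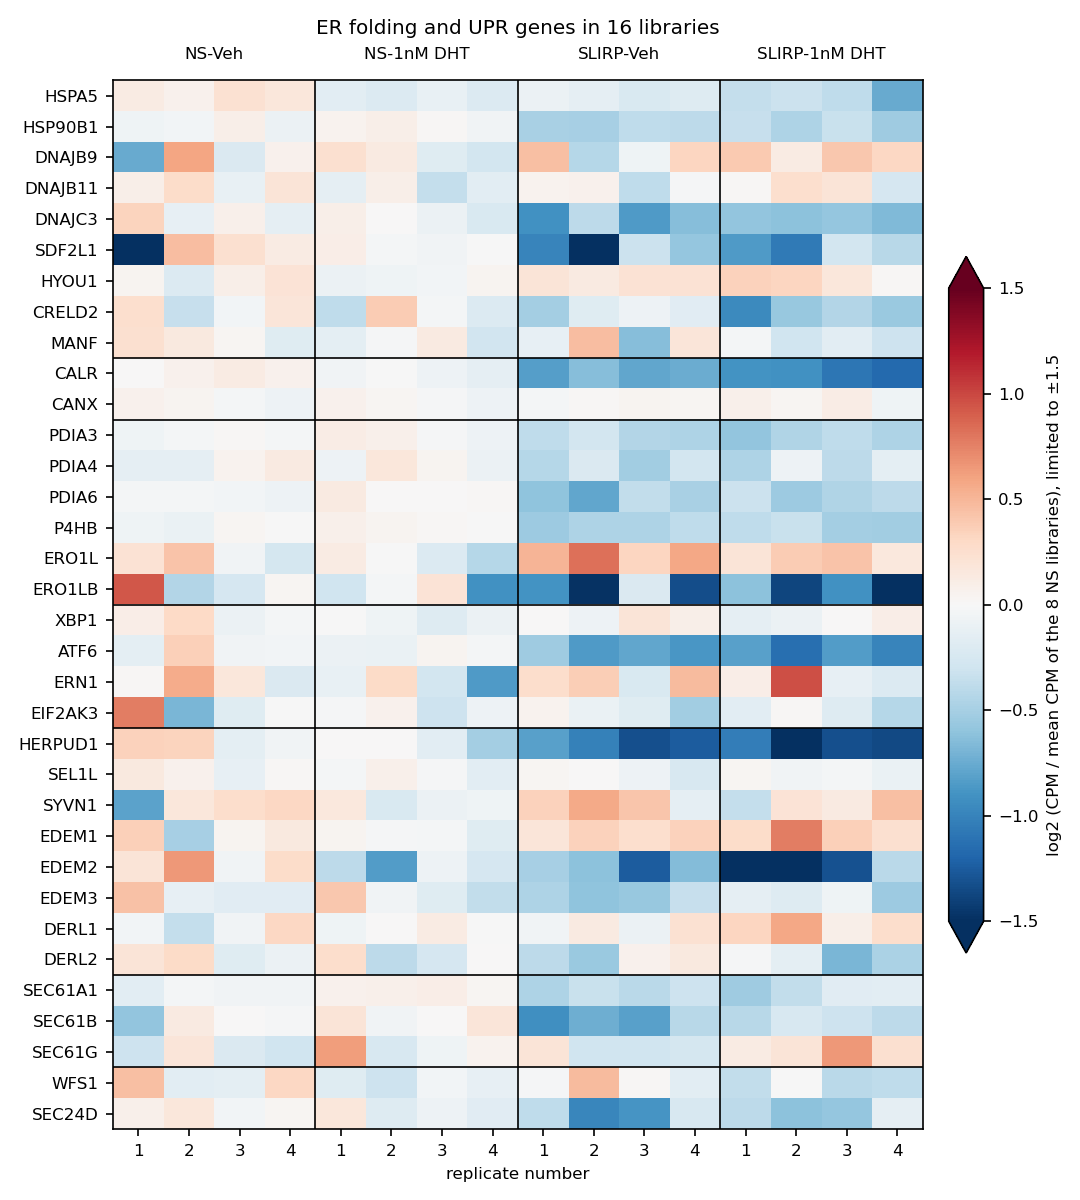
Log2 level of each of the 34 genes (rows, ordered by role, with lines between roles) in each of the 16 libraries (columns, by group and replicate number), relative to the mean CPM of the 8 NS libraries, with colours limited to ±1.5. Blue runs through the 8 SLIRP siRNA columns for CALR, HERPUD1, ATF6, DNAJC3, HSP90B1, P4HB, PDIA3 and PDIA6, while CANX is near white in every column.

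HERPUD1 (hg19 chr16:56966054-56978776), an ER membrane protein that helps assemble the degradation complex and a classical UPR target, had the largest change of the members. Its level was 196, 195, 139 and 149 CPM in the NS-Veh libraries and 155, 155, 138 and 109 CPM in the NS-1nM DHT libraries. It was 87.6, 76.7, 61.9 and 64.9 CPM in the SLIRP-Veh libraries and 75.6, 53.6, 62.1 and 60.3 CPM in the SLIRP-1nM DHT libraries. All 8 SLIRP siRNA libraries were below the lowest NS library, whichever medium they had. The log2 fold change was -1.13 (SE 0.11, FDR 1.06e-09).

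The other members of ER-associated degradation did not share one direction. EDEM1 and EDEM2 belong to a family of mannosidase-like proteins that help direct misfolded glycoproteins to degradation. EDEM1 ranged from 81.1 to 146 CPM (median 115) in NS and from 130 to 195 CPM (median 142) in SLIRP siRNA libraries, and rose by 0.34 on the log2 scale (SE 0.09, FDR 0.00311). The groups overlapped, since the highest NS library exceeded several SLIRP siRNA libraries. EDEM2, measured with 4 to 29 counts per library, ranged from 10.8 to 30.1 CPM (median 18.4) in NS and from 5.64 to 14.5 CPM (median 10.2) in SLIRP siRNA libraries. It fell by 0.77 (SE 0.22, FDR 0.00482), a call that was lost when any of 6 libraries was left out, namely NS-Veh replicate 3 or 4, SLIRP-Veh replicate 3, or SLIRP-1nM DHT replicate 1, 2 or 3 (log2 fold changes from -0.86 to -0.69 over all 16 omissions). The third family member, EDEM3, had a log2 fold change of -0.33 (SE 0.11, FDR 0.0157). The ubiquitin ligase complex and channel of this pathway showed small differences that did not pass the test: 0.20 (SE 0.14) for SYVN1, -0.05 (SE 0.06) for its partner SEL1L, 0.16 (SE 0.10) for DERL1 and -0.20 (SE 0.14) for DERL2.

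The 2 lectin chaperones, which hold newly made glycoproteins in the ER by their sugars, separated from each other. CALR (calreticulin, soluble, hg19 chr19:13049392-13055303) had 1677, 1743, 1823 and 1748 CPM in NS-Veh and 1613, 1670, 1582 and 1519 CPM in NS-1nM DHT. It had 945, 1072, 975 and 998 CPM in SLIRP-Veh and 901, 893, 791 and 747 CPM in SLIRP-1nM DHT, a gap between the siRNA groups that exceeded the spread within either. The log2 fold change was -0.87 (SE 0.06, FDR 2.01e-12). CANX (calnexin, its membrane-bound counterpart, hg19 chr5:179105629-179158642) ranged from 899 to 997 CPM (median 953) in NS and from 909 to 1025 CPM (median 968) in SLIRP siRNA libraries. Its log2 fold change was 0.02, with a 95% interval from -0.07 to 0.12 and an FDR of 0.715, so a change of the size seen for CALR lay outside the interval. Per kilobase of transcript, CALR was the most abundant member in NS-Veh with a mean of 919 CPM per kilobase, against 194 for CANX, and in SLIRP-1nM DHT its mean was 438.

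**Figure D2:**
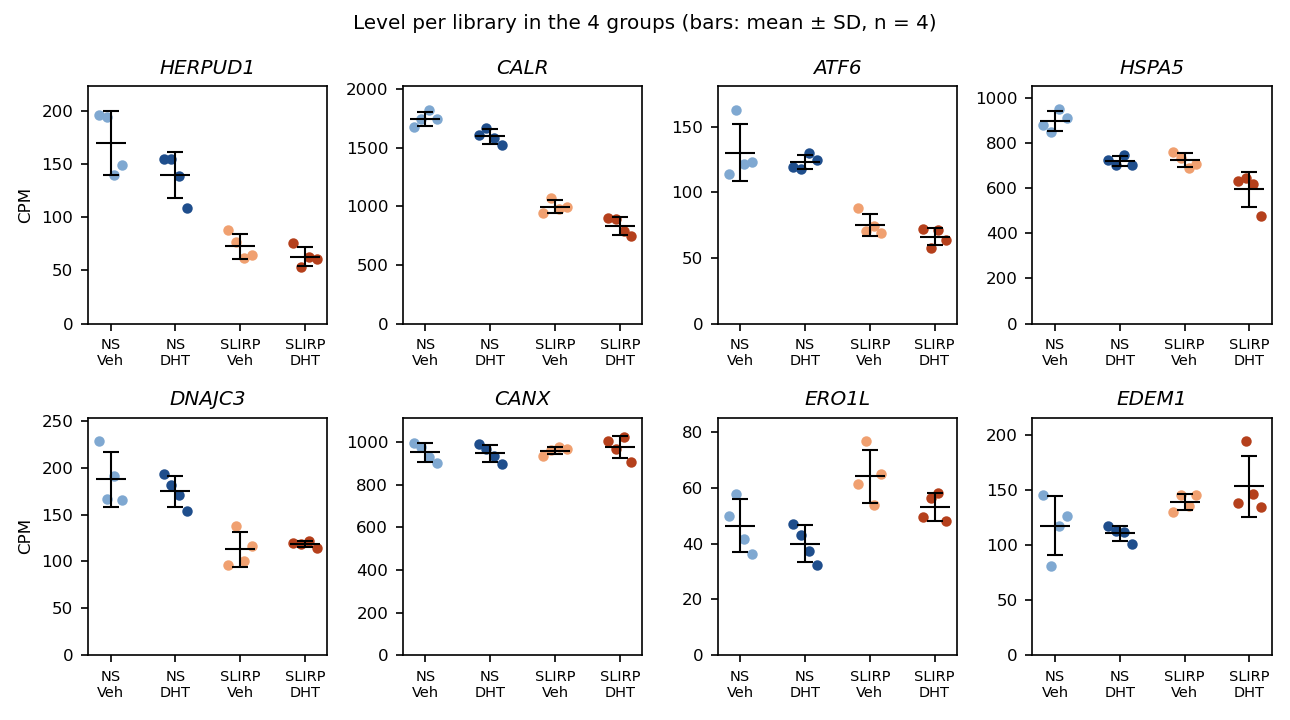
Level in CPM (vertical axes, starting at 0) of 8 members in the 4 groups, with a point per library and bars for mean ± SD (n = 4). CALR ranges from 1519 to 1823 CPM in the NS libraries and from 747 to 1072 CPM in the SLIRP siRNA libraries, while CANX stays between 899 and 1025 CPM throughout.

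Of the 9 chaperones and co-chaperones, 3 fell and 6 did not pass the test. DNAJC3, a co-chaperone of HSPA5 that also restrains PERK, ranged from 154 to 228 CPM (median 176) in NS and from 96.5 to 138 CPM (median 118) in SLIRP siRNA libraries. It fell by 0.65 (SE 0.08, FDR 1.74e-07) and its groups did not overlap. HSP90B1 (the ER form of HSP90) ranged from 1089 to 1231 CPM (median 1150) in NS and from 803 to 920 CPM (median 863) in SLIRP siRNA libraries, again with no overlap, and fell by 0.43 (SE 0.05, FDR 4.54e-08).

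HSPA5 (BiP, the main ER chaperone of the HSP70 family, which also holds the sensors inactive, hg19 chr9:127997132-128003661) had 881, 848, 951 and 910 CPM in NS-Veh and 727, 703, 748 and 703 CPM in NS-1nM DHT. It had 761, 734, 692 and 708 CPM in SLIRP-Veh and 634, 646, 620 and 478 CPM in SLIRP-1nM DHT. The SLIRP siRNA libraries as a whole overlapped the NS libraries, because NS-1nM DHT and SLIRP-Veh reached alike levels. Over 16 libraries HSPA5 fell by 0.30 (SE 0.08, FDR 0.00308). The call was lost without NS-Veh replicate 3 (FDR 0.0159) or NS-Veh replicate 4 (FDR 0.0134).

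The remaining chaperone genes gave less even values. SDF2L1, a partner of ER HSP40 proteins with 1 to 21 counts per library, had a log2 fold change of -0.74 (SE 0.24, FDR 0.0128). CRELD2, a secreted ER stress-inducible protein, had -0.43 (SE 0.14, FDR 0.0142). HYOU1, the ER HSP110 protein that exchanges nucleotide on HSPA5, had 0.19 (SE 0.07, FDR 0.0181), with 4 SLIRP siRNA libraries above the highest NS library. These 3 were outside the threshold of 0.01 and inside one of 0.05. DNAJB9 (0.28, SE 0.17), DNAJB11 (0.02, SE 0.10), both ER HSP40 proteins, and the secreted stress factor MANF (-0.07, SE 0.12) had intervals that included 0.

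All 6 disulfide enzymes passed the test, 5 lower and 1 higher. The 4 protein disulfide isomerases, which form and rearrange disulfide bonds in folding proteins, changed by a narrow range of amounts. PDIA6 ranged from 451 to 525 CPM (median 473) in NS and from 279 to 382 CPM (median 345) in SLIRP siRNA libraries and fell by 0.49 (SE 0.06, FDR 1.59e-07). P4HB ranged from 946 to 1075 CPM (median 1021) and from 700 to 805 CPM (median 738) and fell by 0.45 (SE 0.05, FDR 1.74e-08). PDIA3 fell by 0.43 (SE 0.05, FDR 8.34e-08), also without overlap of the groups, and PDIA4 fell by 0.32 (SE 0.07, FDR 0.000473) with 7 of 8 SLIRP siRNA libraries below the lowest NS library.

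The 2 ER oxidases, which pass oxidizing power to the disulfide isomerases, moved in opposite directions. ERO1L (current symbol ERO1A, hg19 chr14:53106633-53162618) ranged from 32.2 to 57.9 CPM (median 42.4) in NS and from 48.3 to 76.7 CPM (median 57.3) in SLIRP siRNA libraries and rose by 0.49 (SE 0.12, FDR 0.00128). ERO1LB (current symbol ERO1B), read with 5 to 29 counts per library, ranged from 11.7 to 42.0 CPM (median 20.05) and from 7.24 to 18.8 CPM (median 10.2) and fell by 0.93 (SE 0.23, FDR 0.00128). Both genes had overlapping groups. The call of ERO1LB was lost with only replicates 1 and 2 (-1.08, FDR 0.014) and with only replicates 3 and 4 (-0.80, FDR 0.0504). That of ERO1L was lost with only replicates 1 and 2 (0.34, FDR 0.159). In NS-Veh, ERO1L and ERO1LB were among the least abundant members, with means of 9.04 and 4.97 CPM per kilobase, against 407 for P4HB.

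Of the sensors, ATF6 alone passed the test. ATF6 (hg19 chr1:161736088-161947364), a membrane-anchored transcription factor released by proteolysis in the Golgi, had 114, 162, 122 and 123 CPM in NS-Veh and 120, 118, 130 and 124 CPM in NS-1nM DHT. It had 87.6, 70.5, 74.0 and 69.2 CPM in SLIRP-Veh and 71.7, 57.8, 70.9 and 63.5 CPM in SLIRP-1nM DHT, with no overlap between the siRNA groups. The log2 fold change was -0.81 (SE 0.09, FDR 1.05e-08). XBP1, the transcription factor whose RNA IRE1 splices, had a log2 fold change of 0.03 with a 95% interval from -0.11 to 0.17 (FDR 0.738). ERN1 (0.28, SE 0.20) and EIF2AK3 (-0.16, SE 0.13) also did not pass. Counts per gene do not separate spliced from unspliced XBP1, cleaved from intact ATF6, or active from inactive kinases.

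Of the channel through which nascent chains enter the ER, the pore subunit SEC61A1 ranged from 608 to 725 CPM (median 677) in NS and from 467 to 609 CPM (median 530) in SLIRP siRNA libraries and fell by 0.34 (SE 0.06, FDR 2.87e-05). SEC61B fell by 0.54 (SE 0.11, FDR 0.000209). The smallest subunit, SEC61G, had a log2 fold change of 0.14 (SE 0.15). SEC24D, a cargo adaptor of the COPII coat, fell by 0.44 (SE 0.12, FDR 0.00372), a call that was lost without NS-1nM DHT replicate 1 (FDR 0.0107) or SLIRP-Veh replicate 3 (FDR 0.0108). WFS1, an ER membrane protein that restrains ATF6, had -0.08 (SE 0.14).

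**Figure D3:**
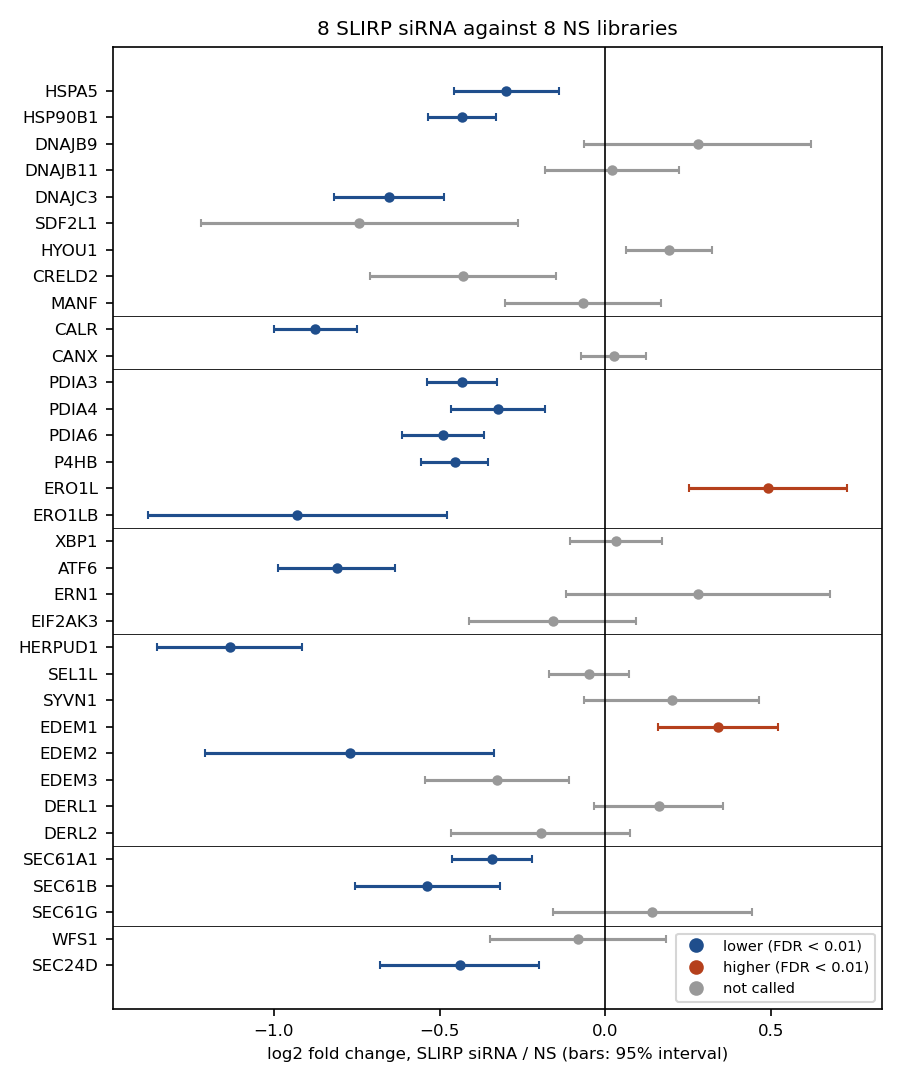
Log2 fold change of the 34 members, SLIRP siRNA over NS in 8 against 8 libraries, in the order of their roles, with bars for the 95% interval and colour for the call at an FDR of 0.01. The 15 lower members lie between -1.13 and -0.30, and the 2 higher members, EDEM1 and ERO1L, at 0.34 and 0.49.

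The precision followed the depth. The standard error of the log2 fold change was 0.05 for CANX, the smallest, and 0.24 for SDF2L1, the largest, with a median of 0.11 over the members. Of the 17 members with the higher mean CPM, 11 fell and 1 rose, and of the 17 with the lower mean CPM, 4 fell and 1 rose. The shares over all genes tested, 17.4% lower and 17.8% higher, cover genes of every level. Shares over genes of a level like that of the members were not computed.

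The sequence of some members limits their counts. A processed copy of PDIA3, listed as PDIA3P, had 540 to 620 CPM in NS and 378 to 448 CPM in SLIRP siRNA libraries, and HSP90B3P, a copy of HSP90B1, had 5 to 35 counts per library and also fell, by 0.99 (SE 0.20, FDR 0.00016). The counts are estimates by the program RSEM, whose version and annotation are not given. How many reads shared with such copies were assigned to the wrong gene is not known, so the values of PDIA3 and HSP90B1 are uncertain to that extent. Exons of 7 of the 15 lower members (CALR, HSP90B1, PDIA3, PDIA6, P4HB, SEC61A1 and ERO1LB) and of both higher members overlap another annotated locus, and since the counting strand is not given, reads of the overlapping loci cannot be told apart. The 8 others, among them HERPUD1, ATF6, DNAJC3 and HSPA5, have no such overlap.

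Members with and without a promoter element differed as follows, as a description with no test. Of the 11 members with an ERSE or ERSE-II, 6 fell (CALR, HERPUD1, HSPA5, HSP90B1, PDIA6 and ERO1LB), 0 rose in the edgeR test (HYOU1 rose by DESeq2), and the median log2 fold change was -0.43. Of the 20 members with a window and neither element, 7 fell and 2 rose, and the median was -0.12. Over all genes tested 17.4% fell and 17.8% rose. The 2 sets of members were not matched for level. CANX and XBP1 have an ERSE, as CALR and HSPA5 printed above do, in 3 of 4 and in 1 of 2 windows. Their log2 fold changes were 0.02 and 0.03. ATF6 and DNAJC3 fell without either run of letters in the window.

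When vehicle and DHT were taken separately, SLIRP siRNA gave a like set of values in both. In vehicle (SLIRP-Veh against NS-Veh, 4 against 4), 12 members fell, beside 9.95% of the 10684 genes tested, and ERO1L rose, beside 11.8%. In DHT (SLIRP-1nM DHT against NS-1nM DHT, 4 against 4), 10 members fell, beside 11.6% of all genes tested, and EDEM1 rose, beside 12.8%. These 2 comparisons contrast different libraries, but both come from the 4-group model of all 16 libraries. They share its estimate of the spread, so their calls are not independent. The 10 members that fell in DHT (CALR, HSP90B1, P4HB, HSPA5, PDIA3, SEC61A1, PDIA6, DNAJC3, ATF6 and HERPUD1) fell in vehicle as well, and PDIA4 and SEC61B passed in vehicle but not in DHT, at -0.27 (SE 0.09, FDR 0.0204) and -0.42 (SE 0.14, FDR 0.0152). Across the 34 genes, which are not independent replicates, the log2 fold changes in vehicle and in DHT had Pearson's r of 0.93 and Spearman's rho of 0.93, and 33 of 34 had the same sign.

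HERPUD1 fell by 1.13 in vehicle (SE 0.14) and by 1.14 in DHT (SE 0.14), CALR by 0.81 (SE 0.07) and 0.94 (SE 0.07), and ATF6 by 0.73 (SE 0.12) and 0.89 (SE 0.12). ERO1L had 0.55 in vehicle (SE 0.17, FDR 0.00969) and 0.42 in DHT (SE 0.16, FDR 0.0455), and EDEM1 had 0.21 (SE 0.13, FDR 0.209) and 0.46 (SE 0.12, FDR 0.00262). The call of ERO1L in vehicle was lost in 13 of 16 omissions of a library, and that of EDEM1 in DHT without SLIRP-1nM DHT replicate 2. HSPA5 fell by 0.31 in vehicle (SE 0.08, FDR 0.00181) and by 0.28 in DHT (SE 0.08, FDR 0.00421). Its value in DHT rested on SLIRP-1nM DHT replicate 4, the lowest library, without which it was -0.17 (FDR 0.0726). The call of HSPA5 was also lost without any 1 of the 4 NS-1nM DHT libraries in DHT, and without NS-Veh replicate 3 or 4 or SLIRP-Veh replicate 4 in vehicle. In vehicle, the calls of PDIA4 and SEC61A1 were lost without NS-Veh replicate 3 or 4 or SLIRP-Veh replicate 1, that of PDIA4 also without SLIRP-Veh replicate 3, and that of SEC61B without NS-Veh replicate 3 or SLIRP-Veh replicate 1 (FDR from 0.0107 to 0.0358).

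**Figure D4:**
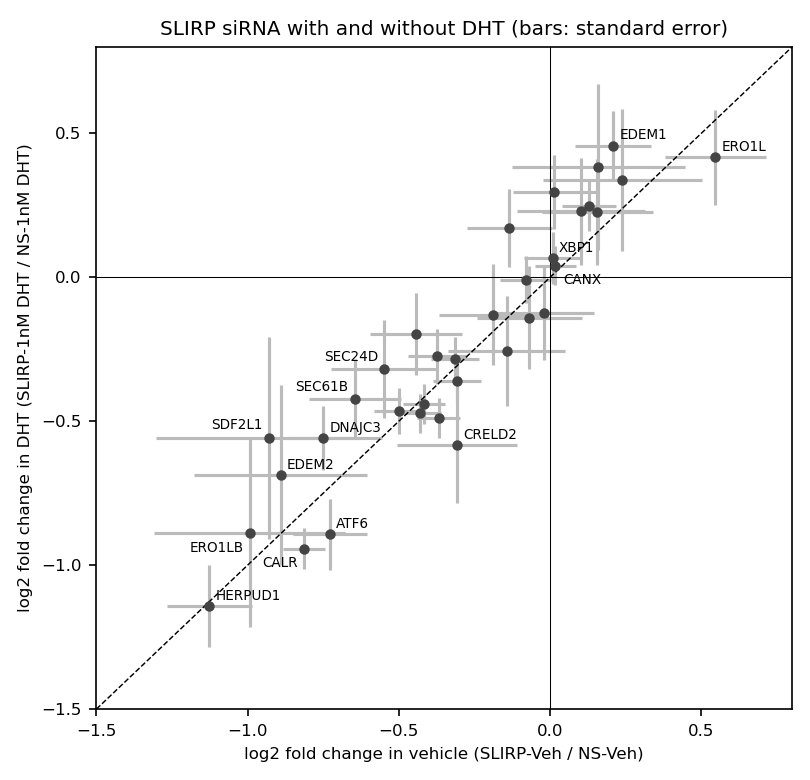
Log2 fold change of each member under SLIRP siRNA in vehicle (horizontal axis) and in 1 nM DHT (vertical axis), with bars of 1 standard error and the line of equal change dashed. 33 of the 34 points have the same sign on both axes, and HERPUD1, CALR and ATF6 lie farthest down among those with short bars.

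DHT alone lowered HSPA5 and changed no other member past the threshold. In NS cells (NS-1nM DHT against NS-Veh, 4 against 4), HSPA5 went from 848 to 951 CPM in vehicle to 703 to 748 CPM in DHT, with no overlap, a log2 fold change of -0.33 (SE 0.06, FDR 0.00151). This was 1 of 34 members lower, beside 0.463% of the 10367 genes tested, and the call was lost without NS-Veh replicate 3 (FDR 0.014). 0 members rose by edgeR or by DESeq2, beside 0.849% of all genes tested, while 1 member, SEC61A1, had a positive value at an unadjusted p under 0.05 (0.13, SE 0.06, FDR 0.345). EDEM2 had the largest negative value, -0.58, with an SE of 0.25 (FDR 0.266). CALR had -0.14 (SE 0.06, FDR 0.225) and HERPUD1 -0.22 (SE 0.12, FDR 0.397). The 3 SEC61 subunits had positive values, from 0.13 to 0.29, and the 3 sensors, XBP1 and the 8 degradation genes had negative ones, with 0 of these called by edgeR or DESeq2 (unadjusted p under 0.05 for SEC61A1 and EDEM2 among them).

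In SLIRP siRNA cells (SLIRP-1nM DHT against SLIRP-Veh), 0 members rose by edgeR or DESeq2, beside 0.636% of the genes tested, and 0 fell, beside 0.534%. At an unadjusted p under 0.05 there were 2 higher (SEC61B at 0.37, SE 0.15, and SEC61G at 0.42, SE 0.19) and 2 lower, HSPA5 at -0.29 (SE 0.08, FDR 0.0315) and CALR at -0.26 (SE 0.07, FDR 0.0329). Both passed a threshold of 0.05. HSPA5 in the SLIRP siRNA cells lay between 692 and 761 CPM in vehicle and between 478 and 646 CPM in DHT, so its groups did not overlap there either.

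The DHT responses of NS and SLIRP siRNA cells did not differ detectably in any member. The difference in response, tested as an interaction, was called in 0 of 34 members and in 0% of the 10684 genes tested by edgeR, and in 0 genes by DESeq2. At an unadjusted p under 0.05 there were 0 members and 388 genes in all. For HSPA5 the difference was 0.03 (SE 0.11, 95% interval from -0.19 to 0.25), and for CALR it was -0.13 (SE 0.10, 95% interval from -0.32 to 0.06). The median SE of this difference over the members was 0.20, and a value of 0.31 for DNAJB11 (SE 0.19, unadjusted p 0.124) did not pass either, so these libraries do not show that the responses were alike.

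Further genes of protein folding, targeting, degradation, ER export and UPR signalling were taken by pathway, and include genes whose products act outside the ER. Of 107 such genes, 103 were tested over 16 libraries, 28 fell and 17 rose, with a median log2 fold change of -0.10. Over all genes tested 17.4% fell and 17.8% rose, and the counts of these lists are to be read against those shares. Among 21 other folding and glycoprotein quality control genes, 7 fell and 3 rose. FKBP11, an ER prolyl isomerase, fell by 1.58 (SE 0.17), while DNAJC1, an ER membrane co-chaperone, rose by 1.04 (SE 0.14) and UGGT1, which returns unfolded glycoproteins to CALR and CANX, rose by 0.63 (SE 0.08).

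Among 26 genes of the oligosaccharyltransferase and of protein targeting, 10 fell and 4 rose. SRP9, of the signal recognition particle, fell by 0.88 (SE 0.07) and SSR4, of the translocon-associated complex, by 0.61 (SE 0.10), while SEC63, a partner of SEC61 that recruits HSPA5, rose by 0.62 (SE 0.08). Of 19 further degradation genes tested (20 listed), 4 fell and 4 rose, among them the ubiquitin-conjugating enzyme UBE2G2 (0.71, SE 0.08) and the ubiquitin ligase RNF139 (0.46, SE 0.10). Of 11 further COPII genes, 2 fell, the coat proteins SEC13 (-1.18, SE 0.13) and SEC23A (-0.34, SE 0.07), a share near that of all genes tested, and 0 rose in the edgeR test.

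Of 14 other UPR regulators tested (15 listed), 4 rose and 3 fell, among them MAPK8, the kinase JNK1 downstream of IRE1 (0.64, SE 0.16), and the ATF6-like factors CREB3L2 (0.60, SE 0.10) and CREB3L4 (-0.53, SE 0.13). Of 12 PERK and ATF4 targets tested (14 listed), 2 rose and 2 fell, in both directions near the share over all genes tested. The serine synthesis enzyme PSAT1 went from 230 to 390 CPM in NS to 37.6 to 74.0 CPM in SLIRP siRNA libraries and fell by 2.18 (SE 0.11). STC2, a secreted glycoprotein, rose by 0.62 (SE 0.12) and DDIT4, an inhibitor of mTORC1, fell by 0.59 (SE 0.11).

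Chaperones of the cytosol and mitochondria, set beside the ER members as a contrast, gave 13 higher and 3 lower of 27 tested (28 listed), with a median log2 fold change of 0.23. Of all genes tested, 17.8% were higher and 17.4% lower. The HSP70 cofactor BAG3 rose by 0.82 (SE 0.09) and TCP1, a subunit of the cytosolic chaperonin, by 0.76 (SE 0.07). HSPA1B, whose reads cannot be separated from those of the near-identical HSPA1A, had a log2 fold change of -1.01 (SE 0.07). The difference between this list and the ER members was not tested.

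**Figure D5:**
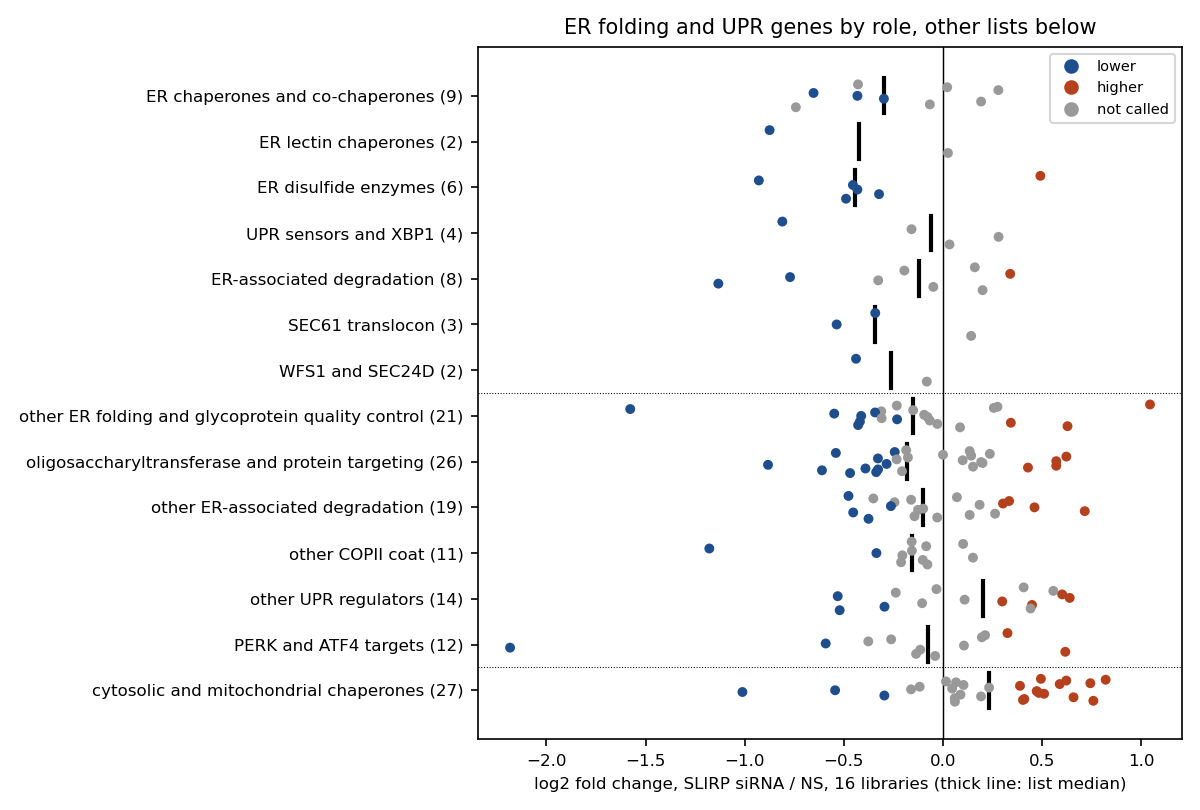
Log2 fold change (horizontal axis), SLIRP siRNA over NS in 16 libraries, of each tested gene in the 7 roles of the 34 members (top), 6 further pathway lists (middle) and the chaperones outside the ER (bottom), with the number tested in brackets and a thick line at each list's median. The disulfide enzymes have a median of -0.44 with 5 of 6 lower, and the chaperones outside the ER a median of 0.23 with 13 of 27 higher. Of all genes tested, 17.4% were lower and 17.8% higher.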

How the data were processed

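RNA from LNCaP cells was sequenced in 16 libraries, 4 per group, grouped by the sample labels. Per the paper's methods and the submitters' processing notes, the authors took single 50-base Illumina reads and used CASAVA, RSEM and hg19 (program versions, annotation and counting strand are not given in the sources used here). The authors deposited estimated counts per gene, rounded to whole numbers, which were analysed here. The deposited normalized table holds a score, the counts of a library divided by their upper quartile times a constant, and was used only as an alternative.

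Counts were scaled by TMM, filtered with filterByExpr and fitted with edgeR 4.0.16 (glmQLFit, glmQLFTest) in R 4.3.3, at a false discovery rate (FDR) of 0.01, adjusted by Benjamini-Hochberg across the genes tested in each comparison. SLIRP siRNA and NS were compared over 16 libraries, DHT and vehicle within NS cells over 8, and all else by contrasts of a 4-group model. All 34 genes passed the filter. CPM are relative to the TMM-scaled library size. Standard errors are the log2 fold change divided by the square root of the F statistic, and 95% intervals are normal intervals from them. Library totals lay between 436353 and 1689708 counts, so that 3 counts in a library corresponded to 1.78 to 6.95 CPM, a floor that covers counting error only. Replicates of a group differed by 1.21 to 2.37 times the Poisson expectation (chi-square per degree of freedom), so none was counted as a repeat of another. Replicates 1 and 2, and 3 and 4, had 1.24 and 1.38 in NS-Veh and 1.21 and 1.30 in NS-1nM DHT, where other pairs had 1.46 to 1.90. They had 1.93 and 1.21 in SLIRP-Veh and 1.53 and 1.78 in SLIRP-1nM DHT, where other pairs had 1.53 to 2.37. Whether the numbers follow the experiments was not tested. The paper gives 2 biological replicates from each of 2 experiments but not which replicate number belongs to which experiment, so the replicate number was a block only as an alternative. P-values measure the spread between these cultures of 1 cell line. They take the libraries as independent, with no term for the experiment.

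The 34 genes and the other lists were chosen with earlier results of these data known. Genes named are, in each role, the members past the FDR over 16 libraries (up to 4 with the largest change), any member past it for DHT in NS cells or for the difference in DHT response, up to 3 per further list, and the SLIRP gene itself. Further members are named to account for all 34. Some genes of the further lists are not reported here by name. The alternatives were RLE size factors, DESeq2 1.42.0, no filter, the replicate block, an FDR of 0.05, limma 3.58.1 on log2 of the normalized table (pseudocount 1 or 0.1), treatment as a covariate, only replicates 1 and 2 or 3 and 4, and leaving out each library in turn. The edgeR fit with and without the replicate block, the DESeq2 fit and the limma fit at pseudocount 1 were tested on simulated data with known changes. Those changes were larger than the changes of most members, and the other alternatives were not tested in this way. Gene positions are from the GENCODE annotation of hg19. Promoter windows (250 bases before to 50 after a start site) are from RefSeq on GRCh38.p14 and were searched on both strands. Protein sequences were not analysed here.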

Additional observations from a re-analysis of the deposited data

Results flagged for a closer look

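Of 136 sets of 4 libraries (34 members in 4 groups), 6 had a library that stood apart from the other 3 by Dixon's test, where chance alone gives about 6.8. HSPA5 was 478 CPM (594 counts) in SLIRP-1nM DHT replicate 4, below the 620 to 646 CPM of the others, and its fall under SLIRP siRNA in DHT changed from -0.28 to -0.17 on the log2 scale without that library. PDIA6 was 525 CPM in NS-1nM DHT replicate 1, above 478 to 483 CPM. EDEM3 was 158 CPM in NS-Veh replicate 1 (79 counts), above 103 to 107 CPM. SEC61G was 39.4 CPM in NS-Veh replicate 2 (17 counts), above 28.0 to 29.7 CPM, and 39.7 CPM in SLIRP-Veh replicate 1 (67 counts), above 28.2 to 28.9 CPM. WFS1 was 43.7 CPM in SLIRP-1nM DHT replicate 2 (31 counts), above 33.0 to 33.9 CPM. No cause was tested for these values.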

How the results depend on the processing

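Of the 17 members called over 16 libraries, 17 were kept with RLE size factors, no filter, the replicate block, DESeq2 and treatment as a covariate. EDEM1 was lost and 16 were kept with limma on the normalized values. With only replicates 1 and 2, 9 were kept, and HSPA5, PDIA4, EDEM1, ERO1L, SEC61B, SEC24D, EDEM2 and ERO1LB were lost. With only replicates 3 and 4, 12 were kept, and SEC61A1, EDEM1, SEC24D, EDEM2 and ERO1LB were lost. Leaving out each library gave 13 to 16 lower and 2 to 3 higher members. Of 1473 values of single members under an alternative, 1369 kept direction and side of the threshold, 72 lost and 18 gained the call, and 14 turned direction.

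Members higher over 16 libraries numbered 1 with limma at either pseudocount, 0 with only replicates 1 and 2 and 1 with only 3 and 4. Members lower with DHT in NS cells numbered 0 with limma at either pseudocount and 0 to 1 when a library was left out. Members higher in vehicle numbered 0 with no filter, the replicate block, DESeq2 and limma at either pseudocount, and 0 to 1 without a library. Members higher in DHT numbered 3 at an FDR of 0.05, 0 with limma at either pseudocount and 0 to 2 without a library. Members lower with DHT in SLIRP siRNA cells numbered 2 with the replicate block (HSPA5, FDR 0.00899, and CALR) and 2 at an FDR of 0.05. The cause of these changes was not tested.

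The log2 fold changes that turned direction, all far from the threshold, were those of DNAJB11 (-0.0245 with limma at either pseudocount, -0.0216 to 0.0745 without a library), CANX (-0.00039 with limma at either pseudocount, -0.0210 with replicates 1 and 2), XBP1 (-0.0102 with limma at either pseudocount, -0.136 with replicates 1 and 2), SEC61G (-0.0324) and WFS1 (0.106), both with replicates 1 and 2.

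Same-numbered libraries of different groups correlated weakly in their deviations (mean r from 0.03 to 0.14, not over 0.1 in every pair, and a library correlated best with its own number in 1 to 3 of 4), so the numbers were not taken as pairs. The replicate block added HYOU1 and EDEM3 to the calls over 16 libraries. It called 270 genes in all for DHT in NS cells, where edgeR without it called 136, no filter 236, an FDR of 0.05 272, DESeq2 87, and limma 38 or 24. In DHT the limma table moved the median of all genes to -0.11, and called 792 higher and 1096 lower genes against 1370 and 1237, so member values there are to be read against that shift. With no filter, the difference in DHT response was called in 11 genes, 0 of them members by edgeR. Depth limits the members with few counts: the standard errors of SDF2L1, EDEM2, ERO1LB and DNAJB9 were 0.17 to 0.24, and -0.74 for SDF2L1 and 0.28 for DNAJB9 did not pass the test.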
